A study of Mus musculus with 27 samples.

Results

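The mitochondrial ribosomal proteins are the nuclear-encoded building blocks of the mitoribosome, the ribosome that works inside mitochondria. Their genes were taken here as those whose symbol begins with Mrpl (named for the large subunit) or Mrps (named for the small subunit) followed by a digit, pseudogenes left out, each read from the single-gene probe set with the highest mean. This gave 74 genes of the 18820 with such a probe set, 46 Mrpl and 28 Mrps. Their liver RNA was measured in 27 C57BL/6J mouse pups aged 2 weeks, with 1 microarray per pup: 6 males and 9 females of dams on a low fat diet (m-LF, f-LF), and 6 males and 6 females of dams on a Western-style high fat diet (m-WS, f-WS). The LFD held 10% of its energy as fat and 18.0 mg cholesterol per kg, and the WSD 45% and 196.5 mg per kg. Dams received either diet during 6 weeks of pretreatment, gestation and lactation, whereas the sires received control diet, so that the pups themselves met the diets only through the dam.

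The mitoribosome translates the few messenger RNAs encoded in mitochondrial DNA, all of which make membrane subunits of the respiratory chain and the ATP synthase. All of its proteins are made in the cytosol and imported, and they have to join ribosomal RNA that is transcribed inside the organelle. Part of the set has counterparts in bacterial ribosomes, and part exists only in mitochondria. The symbols do not always give the place of a protein: in the mammalian structure Mrps18a and Mrps30 sit in the large subunit, and Mrps36 is now known as a component of the 2-oxoglutarate dehydrogenase complex. The liver is rich in mitochondria, and suckling pups obtain much of their energy by oxidising milk fat.

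Promoters of such genes often carry sites of nuclear respiratory factor 1 (NRF1) and of GABP, an ETS family factor also called NRF2. RefSeq promoter sequences, covering 250 bases before to 50 bases after each gene's start in build GRCm38.p6, were found for 65 of the 74 genes and searched on both strands. The letters GCGCATGCG, a NRF1 motif, occurred in 10.8% of the 65 promoters and in 3.73% of those of all genes past the intensity filter described below. The ETS letters CCGGAAG occurred in 36.9% against 17.8%, and the YY1 letters AAGATGG in 20.0% against 7.91%. The E-box CACGTG was found in 7.69% against 11.3%. A NRF1 or ETS match was found in 28 of the 65 promoters (43.1%), against 20.6% of those of genes past the intensity filter. Of the 3 genes that passed the test in males and the 8 in females below, 5 had such a match before their start. Mrps28, 1 of the 8, had no promoter sequence to search. Their sequence around it is shown so that the motif, in capitals, can be seen in its place. Genes that rose and genes that fell are both among these 5. Of the 6 tested genes with a NRF1 match, the change was above 0 for 4 in males and for 1 in females. Of the 44 without one, it was above 0 for 32 and 30. Of the 20 with an ETS match, it was above 0 for 14 and 11, and of the 30 without one for 22 and 20. The difference between genes with and without a match was not tested. All lines are written in the direction of the gene and end before its start.
Mrpl9, NRF1, chr3:94443283-94443335, plus strand: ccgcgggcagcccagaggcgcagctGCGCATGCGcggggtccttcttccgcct
Mrpl3, ETS, chr9:105053224-105053267, plus strand: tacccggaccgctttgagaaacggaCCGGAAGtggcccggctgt
Mrps18a, ETS, chr17:46110953-46111003, plus strand: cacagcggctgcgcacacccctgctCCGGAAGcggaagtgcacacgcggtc
Mrpl52, ETS on the opposite strand, chr14:54426837-54426893, plus strand: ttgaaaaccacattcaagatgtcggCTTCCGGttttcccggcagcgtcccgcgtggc
Mrpl34, ETS, chr8:71464864-71464920, plus strand: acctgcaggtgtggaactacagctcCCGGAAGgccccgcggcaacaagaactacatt

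The values are log2 intensities after RMA, so a change of 1 is a doubling, and signals of different probe sets cannot be ranked as transcript amounts. All 74 genes passed the intensity filter (at least 20 on at least 4 arrays). Of these, 57 also passed the variation filter, an interquartile range (IQR) over the arrays of at least 0.1: 34 of the large and 23 of the small subunit. The other 17 were Mrpl4, Mrpl15, Mrpl16, Mrpl30, Mrpl37, Mrpl39, Mrpl40, Mrpl45, Mrpl49, Mrpl51, Mrpl57, Mrpl58, Mrps7, Mrps10, Mrps11, Mrps25 and Mrps33. Among the Mrpl probe sets the mean signal was highest for Mrpl23, with 9.95 ± 0.11 (SD over 27 arrays), followed by Mrpl10 and Mrpl50, and lowest for Mrpl44 (5.82 ± 0.17) and Mrpl21. Among the Mrps probe sets Mrps21, Mrps15 and Mrps7 were highest and Mrps26 and Mrps12 lowest, between 6.00 and 9.43.

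Properties of the arrays bear on all comparisons. Pups m-LF6 and m-WS1 are labelled male but had an Xist signal of 9.30 and 7.92, between the other 10 males (at most 4.50) and the females (at least 11.67). Comparisons of males were therefore also made without both. The array names carry a number (37, 49 and 50 for LFD, 39, 40 and 48 for WSD) whose meaning the labels do not give. Each lies within 1 maternal diet and may stand for a dam or litter. P-values that treat pups as independent may then be too small. The array names also begin with either G073 or G074, and both hold all 4 groups, so that within each of them the diets could be compared. The labels name the tissue as liver, and its hepatocyte markers (Alb, Ttr, Apoa1, Serpina1c, Tat and Cps1) had a mean log2 intensity of 12.63 to 12.86 in the pups. As these are bulk samples, fewer cells of a type and less RNA per cell cannot be told apart.

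The first question was whether the set as a whole moved with maternal diet. In both sexes the mean over the large and over the small subunit genes was slightly higher in WSD pups, and the pups of LFD dams spread more widely. Over the 46 Mrpl genes the mean log2 intensity was 8.21 ± 0.028 in m-LF (SD) and 8.25 ± 0.012 in m-WS, and 8.19 ± 0.053 in f-LF and 8.22 ± 0.015 in f-WS. Over the 28 Mrps genes it was 7.66 ± 0.057 and 7.70 ± 0.025 in the males, and 7.62 ± 0.062 and 7.68 ± 0.023 in the females. The lowest means of both subunits in the 2 LFD groups were those of m-LF5 and f-LF4, and the groups of the 2 diets overlapped. Of the m-LF pups, m-LF5 also had the lowest mean of the hepatocyte markers (12.65) and of the B cell markers (5.26). Its means of the erythroid (7.26), myeloid (6.85) and Kupffer cell markers (9.58) were the highest of m-LF. Pup f-LF4 was neither lowest nor highest of f-LF for any of these markers. Its means were 12.73 (hepatocyte), 6.11 (B cell), 6.65 (erythroid), 6.17 (myeloid) and 9.22 (Kupffer cell). Among other marker lists, f-LF4 was the highest of f-LF for endothelium (9.59) and the lowest for cholangiocytes (5.03). The part of these cells in the mitoribosomal means of both pups was not tested. The median fitted change, WSD minus LFD, over the genes tested was 0.040 for the large and 0.046 for the small subunit in males, against 0.007 over all 10810 genes tested. In females the medians were 0.048 and 0.071, against 0.014 over all genes. Without the variation filter, over all 74 genes, they were 0.033 and 0.041 in males and 0.039 and 0.061 in females. These medians carry no test, and their size depends on the scaling. With every array centred on its own median they were 0.017 and 0.023 in males and 0.021 and 0.044 in females. The median of all genes became -0.016 and -0.013. Such centring shifts all genes of an array alike, so the distance of the subunit medians from that of all genes stayed the same.

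**Figure D1:**
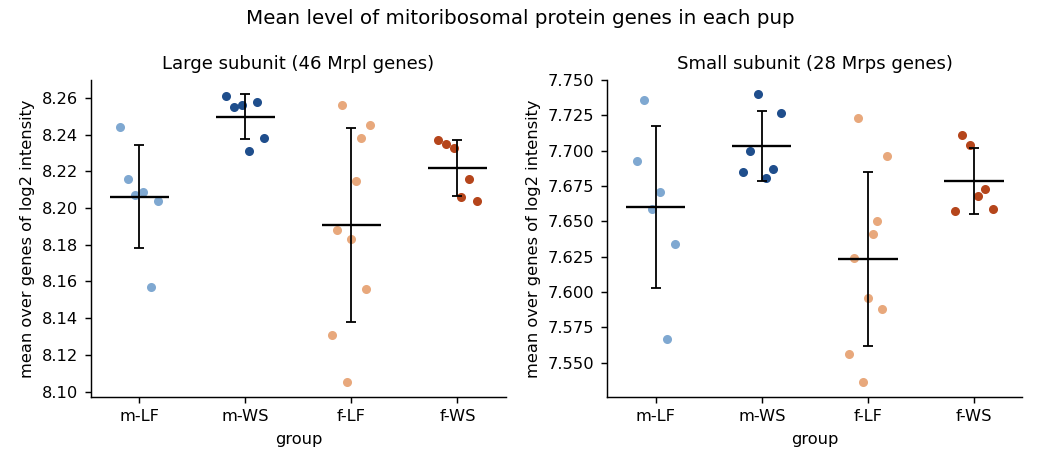
Mean log2 intensity over the 46 Mrpl genes (left) and the 28 Mrps genes (right) in each pup (points), with group mean and SD (line and bar). The vertical axes do not start at 0. WSD pups of both sexes sit close together, between 8.20 and 8.26 for the large subunit, whereas LFD pups reach down to 8.10.

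In males, 3 of the 57 genes tested changed with maternal WSD at p of at most 0.01, and all 3 rose: Mrpl14, Mrpl23 and Mrps18a. They are 5.26% of the genes tested, a share close to the 5.62% of all 10810 genes that passed in males. Of all genes 3.02% rose. With the pups of each number and sex averaged into 1 value, 0 of the 57 passed, and no share of all genes is given for that fit. No change passed an adjusted p of 0.05, which 0.731% of all genes did, the smallest being 0.0917 (limma, Benjamini-Hochberg over 10810 genes). The sign of the change was positive for 42 of 57 genes (73.7%), against 52.8% of all genes.

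Mrpl14 encodes a protein at the face of the large subunit that meets the small subunit, with a counterpart in bacteria. Its log2 intensity was 8.78, 8.87 and 9.09 in m-LF (lowest, median and highest) and 9.03, 9.08 and 9.12 in m-WS. All m-WS pups lay above 5 of the 6 m-LF pups, and m-LF6 lay within their range. The change was 0.17 ± 0.05 (SE), which is 1.13-fold (adjusted p = 0.103, limma). Without m-LF6 and m-WS1 it was 0.22, with an adjusted p of 0.0344. It no longer passed without m-LF5 (0.14), without the pups of number 48 or 49 (0.15 for either) or with centred arrays (0.15). Within G073 the change was 0.22, which passed, and within G074 it was 0.05, which did not.

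Mrpl23 lies at the exit of the tunnel through which the new chain leaves the large subunit. Its level was 9.89, 9.95 and 10.02 in m-LF and 10.04, 10.09 and 10.15 in m-WS, so that every m-WS pup was above every m-LF pup. The change was 0.14 ± 0.04 (adjusted p = 0.129, limma). The groups were separated in this direction for 2 of the 57 genes, Mrpl23 and Mrpl28, and for 0.851% of all genes. The call was lost without m-LF1, m-LF3 or m-WS4, without number 37 or 48 and with centred arrays, where the change was between 0.11 and 0.13. The change was 0.17 within G073 and 0.10 within G074, neither of which passed.

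Mrps18a carries a small subunit name but belongs to the large subunit in the mammalian structure. Its level was 8.12, 8.29 and 8.43 in m-LF and 8.37, 8.44 and 8.58 in m-WS, with m-LF2 among the m-WS pups and m-LF6 just below them. It rose by 0.16 ± 0.05 (adjusted p = 0.0917, limma). It passed without any single pup, whereas it no longer did without number 48, 49 or 50, with a change of 0.14 each time. The change was 0.17 within G073, which passed, and 0.09 within G074, which did not. By the order of the RefSeq annotation, Mrps18a and Mrpl14 lie on chromosome 17 with 2 protein-coding genes between them, a closeness that was noticed after their values had been seen.

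The remaining large subunit genes of smallest p in males did not pass. Mrpl55 differed by 0.16 ± 0.06, Mrpl28 by 0.17 ± 0.07 and Mrpl18 by 0.15 ± 0.06, with adjusted p from 0.192 to 0.252 (limma). Mrpl28, which has a bacterial counterpart, ranged from 7.24 to 7.47 in m-LF and from 7.47 to 7.60 in m-WS, groups that are separated only beyond the second decimal. Mrpl18 was the most uneven of these, with 8.31 to 8.82 in m-LF but only 8.68 to 8.79 in m-WS. In the small subunit the next genes were Mrps18c with 0.17 ± 0.07, Mrps35 with 0.15 ± 0.07, Mrps31 with 0.09 ± 0.06 and Mrps16, a gene in which mutations cause a respiratory chain disorder in infants, with 0.14 ± 0.09 (adjusted p from 0.208 to 0.508, limma). Mrps18c was 8.51, 8.66 and 8.81 in m-LF and 8.74, 8.81 and 8.91 in m-WS, which overlap. No small subunit gene that is placed in the small subunit by structure passed the test in males.

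In females, 8 of the 57 genes changed, 6 of which rose and 2 of which fell. This was 14.0% of the genes tested, against 5.19% of all genes, of which 3.6% rose and 1.59% fell. The sign of the change was positive for 36 of the 57 genes, against 56.1% of all genes. With the pups of each number and sex averaged, 1 of the 57 passed, Mrpl52 with -0.34. Of the 8, 7 belonged to the large subunit, namely Mrpl2, Mrpl3, Mrpl9, Mrpl46 and Mrpl50, which rose, and Mrpl34 and Mrpl52, which fell. Mrps28 was the only gene named for the small subunit that passed. None passed an adjusted p of 0.05, which 0.305% of all genes did, the smallest being 0.0796 (limma). In none of the 57 genes were f-LF and f-WS fully separated, as they were for 0.342% of all genes with f-WS higher and 0.0925% with f-WS lower. With centred arrays 5 genes passed, of which 2 rose and 3 fell, so the balance of directions depended on the scaling. Within G073 (5 f-LF, 4 f-WS) 0 of the 57 passed and within G074 (4 f-LF, 2 f-WS) 2 passed. For the averaged, centred and split pups no share of all genes is given. A loss of calls in the 57 can thus not be told apart from a general one.

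Mrpl2 encodes a protein close to the catalytic centre of the large subunit. It ranged over 7.30, 7.45 and 7.53 in f-LF and 7.50, 7.63 and 7.67 in f-WS, where f-WS3 with 7.50 was the only f-WS pup below the highest f-LF pup. The change was 0.16 ± 0.04, which is 1.12-fold (adjusted p = 0.0796, limma). It passed without any single pup, but not without number 48, where the change was 0.14. The change was 0.15 within G073 and 0.17 within G074, neither of which passed. In males Mrpl2 differed by 0.01 ± 0.05.

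Mrpl52, which has no bacterial counterpart, fell most in females. Its level was 9.18, 9.43 and 9.68 in f-LF and 8.88, 9.18 and 9.32 in f-WS. Pups f-WS2 and f-WS6 were lowest, both at 8.88. The change was -0.34 ± 0.10, or 0.79-fold (adjusted p = 0.1, limma). No single pup decided the call, but without number 49 the change was -0.25 and did not pass. Within G073 it was -0.31, which did not pass, and within G074 -0.43, which did. In males it was -0.15 ± 0.11 (adjusted p = 0.549, limma), where m-WS4 and m-WS6 were low with 8.99 and 9.14 and the other m-WS pups lay between 9.47 and 9.69.

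Mrpl46 and Mrpl50, also without bacterial counterparts, both rose in females. Mrpl46 was 6.99, 7.25 and 7.37 in f-LF and 7.25, 7.42 and 7.58 in f-WS, a change of 0.23 ± 0.07 (adjusted p = 0.145, limma). Mrpl50 was 9.49, 9.58 and 9.64 in f-LF and 9.58, 9.73 and 9.75 in f-WS, a change of 0.13 ± 0.04 (adjusted p = 0.161, limma). All f-WS pups except f-WS5 lay above every f-LF pup for Mrpl50. Mrpl46 lost the call without f-WS1 or f-WS3 and without number 39, 40, 49 or 50, with changes between 0.19 and 0.22. Mrpl50 lost it without f-WS2, f-WS3, f-WS4 or f-WS6, without the same numbers and with centred arrays, with changes between 0.10 and 0.12. Within G073 and G074 the changes were 0.16 and 0.37 for Mrpl46 and 0.09 and 0.20 for Mrpl50, and of these the 0.37 passed.

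Mrpl3 and Mrpl9, both with bacterial counterparts, rose as well, and mutations of the human Mrpl3 gene are known in respiratory chain disease. Mrpl3 was 8.80, 8.89 and 9.07 in f-LF and 8.90, 9.04 and 9.13 in f-WS (change 0.12 ± 0.04, adjusted p = 0.157, limma). Mrpl9, whose NRF1 match is shown above, was 7.95, 8.02 and 8.21 in f-LF and 8.10, 8.17 and 8.34 in f-WS (change 0.15 ± 0.05, adjusted p = 0.176, limma). In both genes the pups of the 2 diets overlapped. Mrpl3 lost the call without f-WS1 or f-WS6, without number 39, 48, 49 or 50 and with centred arrays, with changes from 0.08 to 0.12. Mrpl9 lost it without any one of f-WS6, f-WS2, f-WS1 and f-LF4 to f-LF8, without the same numbers and with centred arrays, with changes from 0.09 to 0.16. Within G073 and G074 the changes were 0.14 and 0.10 for Mrpl3 and 0.12 and 0.21 for Mrpl9, none of which passed.

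Mrpl34, the counterpart of a very small bacterial protein, fell. Its level was 9.53, 9.72 and 9.81 in f-LF and 9.36, 9.54 and 9.62 in f-WS, a change of -0.14 ± 0.05 (adjusted p = 0.178, limma). Most f-WS pups lay near the lower end of f-LF, and f-WS2 lay below it. It lost the call without any one of 9 pups, f-LF3, f-LF5, f-LF6, f-LF7, f-LF9, f-WS1, f-WS2, f-WS3 and f-WS6, and without number 39, 40, 48, 49 or 50, with changes between -0.16 and -0.09, and with the number as a random block, where the change was -0.13. Within G073 and G074 the changes were -0.10 and -0.21, neither of which passed.

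Mrps28, counted with the bacterial ribosomal protein family in the small subunit, was 6.86, 7.06 and 7.34 in f-LF and 7.15, 7.25 and 7.48 in f-WS. All f-WS pups exceeded 8 of the 9 f-LF pups, f-LF3 being the exception. The change was 0.24 ± 0.08, or 1.18-fold (adjusted p = 0.161, limma). It lost the call without f-LF5, f-LF8, f-WS2 or f-WS3, without number 39, 40, 49 or 50 and with centred arrays, with changes between 0.20 and 0.22. Within G073 and G074 the changes were 0.19 and 0.36, neither of which passed.

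Mrps34, Mrps18c, Mrps22 and Mrps24 followed in the small subunit without passing. Mrps34 had the largest positive change of the 57 genes in females, 0.25 ± 0.09, and missed the threshold narrowly (adjusted p = 0.191, limma). It was 7.26, 7.85 and 8.03 in f-LF and 7.87, 7.98 and 8.15 in f-WS, with f-LF8 lowest at 7.26. Mrps22 differed by 0.14 ± 0.06, Mrps18c by 0.15 ± 0.06 and Mrps24 by 0.10 ± 0.05 (adjusted p from 0.245 to 0.356, limma). Mutations of the human Mrps22 and Mrps34 genes are known causes of combined respiratory chain deficiency.

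**Figure D2:**
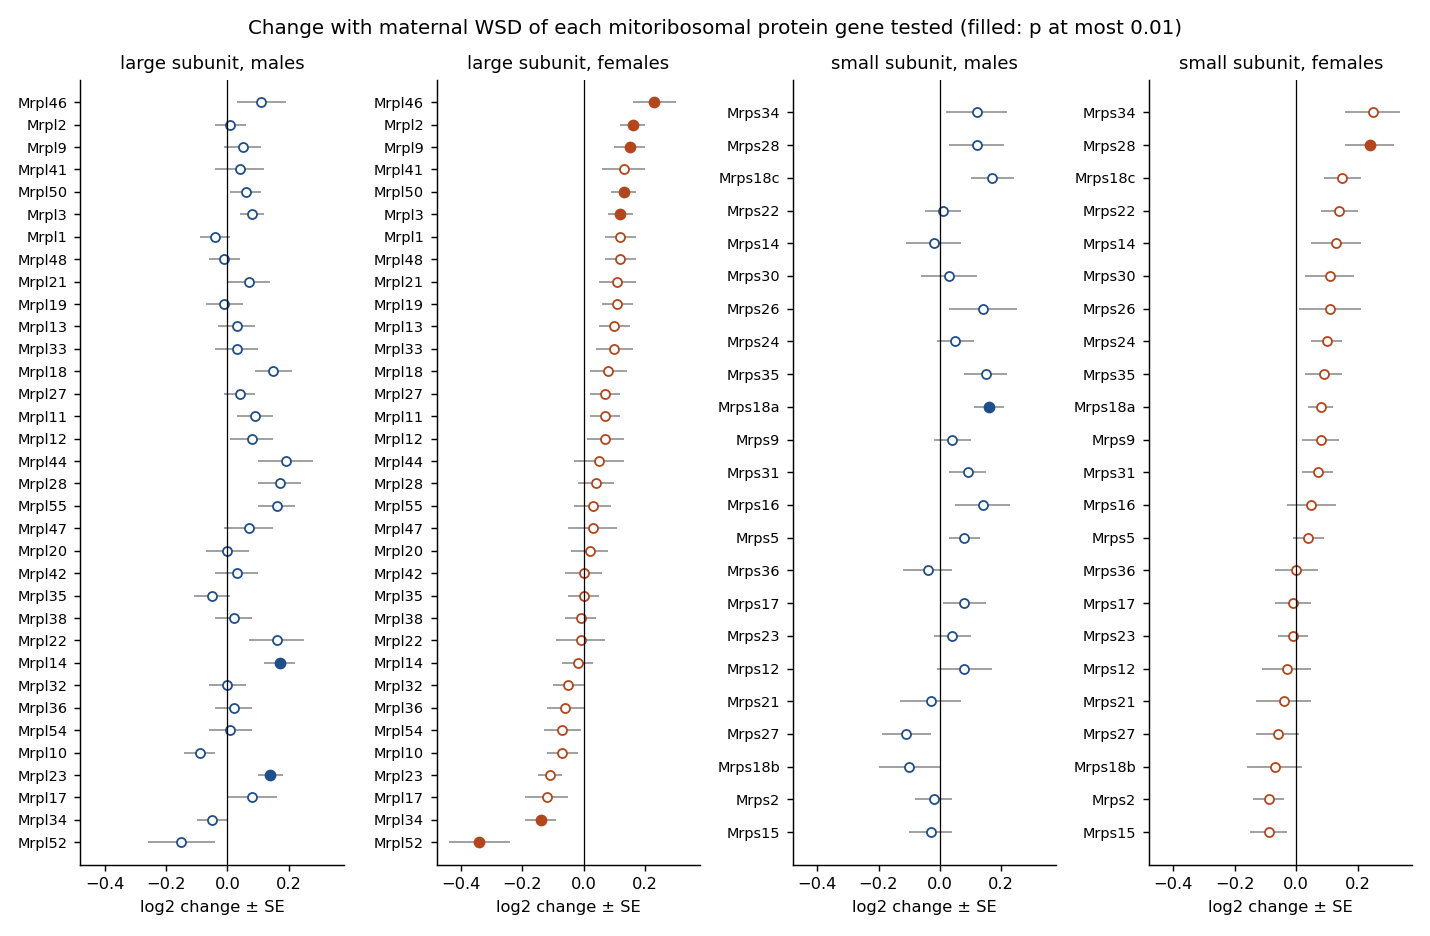
Log2 change with maternal WSD (WSD minus LFD, horizontal axis) of the 34 large and 23 small subunit genes tested, in males (blue) and females (red), with the standard error as a bar. Filled points passed p of at most 0.01: 3 in males and 8 in females. Genes are ordered by the change in females in all panels.

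**Figure D3:**
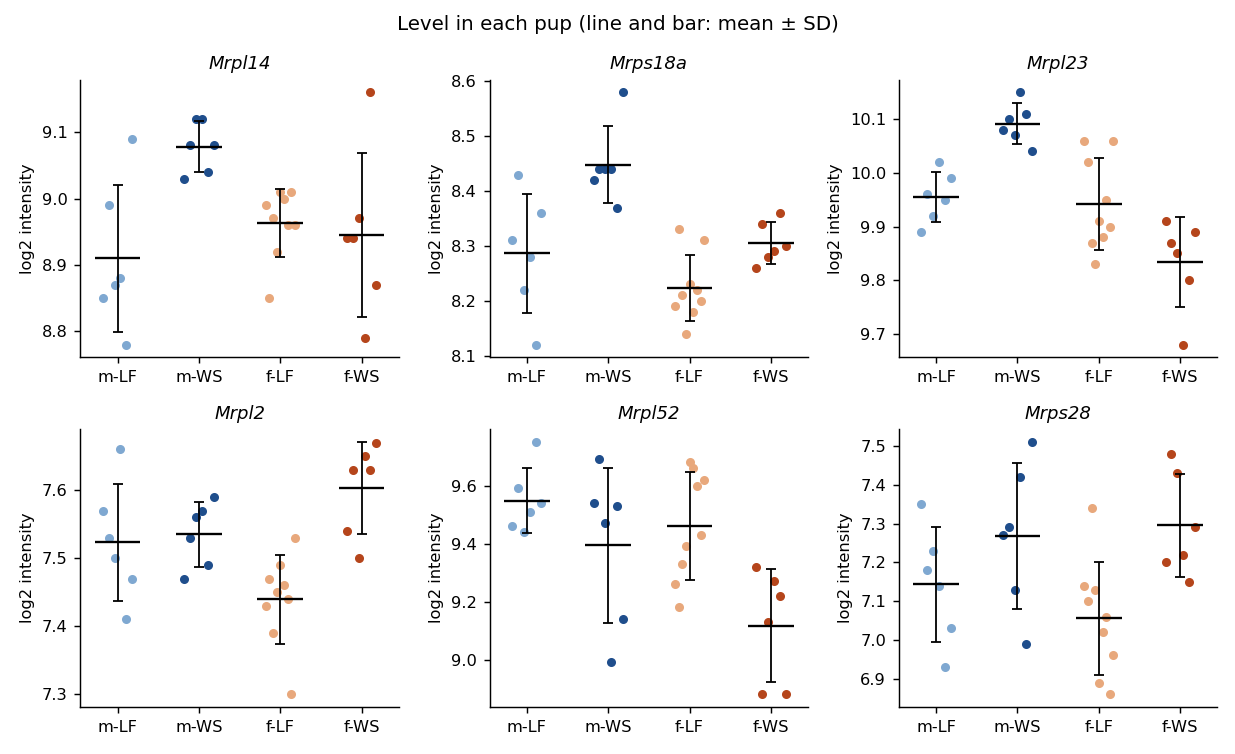
Log2 intensity of 6 genes in each pup of the 4 groups (points), with group mean and SD; the vertical axes do not start at 0. Every m-WS pup exceeds every m-LF pup for Mrpl23, and the f-WS pups lie low for Mrpl52 and high for Mrpl2 and Mrps28.

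Between the sexes, the response of 1 of the 57 genes differed at p of at most 0.01, and 2.5% of all genes did. This was Mrpl23, which was higher with WSD in males and lower in females. In females its level was 9.83, 9.91 and 10.06 in f-LF and 9.68, 9.86 and 9.91 in f-WS, a difference of -0.11 ± 0.04 that did not pass (adjusted p = 0.209, limma). The change in males minus that in females was 0.25 ± 0.06 (adjusted p = 0.316, limma), and it passed without any single pup or number and with the pups of each number and sex averaged. It was 0.33 within G073 and 0.13 within G074, where it did not pass. Further probe sets were read from a separate fit over all 16300 probe sets past the intensity filter, of which 4.63% passed in males and 5.76% in females. In it a second probe set listed for Mrpl23, whose neighbours by number are genes of other chromosomes, changed by 0.14 ± 0.04 in males and -0.11 ± 0.04 in females (adjusted p of 0.127 and 0.137, limma). The probe set used above gave the same changes there (adjusted p of 0.126 and 0.157), and both passed p of at most 0.01 in both sexes in that fit. Whether the probes of both catch the same transcript was not tested. Neighbours of Mrpl23 in the annotation, looked up after its values were seen, include Tnnt3 and Igf2. Tnnt3 differed between the diets by -0.05 ± 0.07 in males and -0.03 ± 0.06 in females, and Igf2, a fetal growth factor, by -0.02 ± 0.06 and 0.13 ± 0.06.

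The next genes by this test were Mrpl14 (0.19 ± 0.07), Mrpl2 (-0.15 ± 0.06) and Mrpl1 (-0.16 ± 0.07), none of which passed (adjusted p from 0.402 to 0.434, limma). Mrpl14 passed without m-LF6 and m-WS1, with 0.23 (adjusted p = 0.241, limma). Mrpl1, whose bacterial counterpart forms a mobile stalk, differed by -0.04 ± 0.05 in males and by 0.12 ± 0.05 in females (adjusted p = 0.225, limma). No gene passed in both sexes. The sign of the change was the same in both sexes for 41 genes, positive for 31 and negative for 10. The same sign was thus seen for 71.9% of the 57 and 56.3% of all genes, and a positive one in both sexes for 54.4% and 32.6%. The male and female comparisons share no pups, but both sexes carry the numbers 37, 49 and 50 on LFD and 40 and 48 on WSD. If a number stands for a litter, males and females may be littermates, and the 2 comparisons are then not independent.

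On LFD, males and females did not differ in any of the 57 genes at p of at most 0.01 (limma), and 1.37% of all genes did. The sign, male minus female, was positive for 41 of the 57 genes (71.9%), against 4853 of all 10810 genes. The median was 0.032, against -0.01 over all genes. A lean to positive signs was thus also seen without a contrast of diets. At an unadjusted p under 0.05, 2 of the 57 differed, Mrpl1 (male minus female 0.11 ± 0.05) and Mrps14 (0.19 ± 0.08). At p of at most 0.05, 267 of all 10810 genes were higher in males and 447 lower (limma). On WSD, 2 of the 57 differed, both higher in males, and 3.35% of all genes did in either direction. Mrpl23 differed by 0.26 ± 0.04 (adjusted p = 0.0036, limma), a threshold of 0.05 that 0.167% of all genes met, with every m-WS pup above every f-WS pup. Mrps18a differed by 0.14 ± 0.05 (adjusted p = 0.243) and its groups were separated as well, as they were in this direction for 0.213% of all genes. These comparisons use the same WSD pups as those above.

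By role, in females 4 of 24 tested large subunit genes with a counterpart changed (3 rose) and 3 of 9 without (2 rose). In the small subunit 1 of 12 with and 0 of 8 without a counterpart changed. In males the counts were 2 of 24, 0 of 9, 0 of 12 and 0 of 8, and the remaining call was Mrps18a. In females the large subunit classes with and without a counterpart thus passed in 16.7% and 33.3%, above the 5.19% of all genes. Each of the other classes holds 0, 1 or 2 calls, and the share of all genes in males was 5.62%. The difference between the classes, or from all genes, was not tested.

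Among the 17 genes below the variation filter, a fit with the intensity filter alone (13279 genes, of which 5.14% passed in either sex) found 0 in males and 2 in females, Mrpl51 (0.10 ± 0.03, adjusted p = 0.168) and Mrps7 (0.13 ± 0.05, adjusted p = 0.188, limma). In males Mrpl15 came closest, with 0.13 ± 0.05 (adjusted p = 0.236, limma). At an unadjusted p under 0.05 in males were Mrpl15, Mrpl40 and Mrpl51, all with a positive change, and in females, besides the 2 that passed, Mrpl16, Mrpl40 and Mrps10 with a positive change and Mrpl4 with -0.10 ± 0.04. In the fit of 10810 genes, 876 were higher and 670 lower at p of at most 0.05 in males (limma). In females these were 1050 and 514. For 7 of the 74 genes, Mrpl27, Mrpl41, Mrpl48, Mrpl51, Mrps10, Mrps33 and Mrps36, the probe set used is numbered among probe sets of genes of another chromosome. In the fit over probe sets, that of Mrpl27 numbered among its own chromosome rose in females by 0.18 ± 0.06 (adjusted p = 0.149, limma), whereas the brighter one used above differed by 0.07 ± 0.05. Of Mrpl51 the own-chromosome probe set differed there by -0.02 ± 0.06 in females, so its call rests on the other. Mrpl24, Mrpl43, Mrpl53 and Mrps6 were covered only by probe sets listed with a second gene. Of these the one listed with Rrnad1 and Mrpl24 rose in females in the same fit by 0.17 ± 0.05 (adjusted p = 0.0816, limma), and which of the 2 genes it reports cannot be told apart.

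The genes that work with the mitoribosome were described in the same way, and their counts stand against the 5.62% of all genes that passed in males and the 5.19% in females. Of the mitoribosomal proteins with other names, Ptcd3, a small subunit protein, rose in females (0.15 ± 0.05, adjusted p = 0.19, limma), 1 of 2 tested. Of 14 tested genes of mitoribosome assembly and ribosomal RNA modification, 0 changed in males and 1 rose in females, Fastkd2, an RNA-binding assembly factor (0.23 ± 0.06, adjusted p = 0.0989, limma). Of 10 translation factors, 0 changed in males and 2 rose in females, C1qbp (0.16 ± 0.05) and the release factor family member Mtrf1 (0.20 ± 0.07). Here the median change in females was 0.131, with 9 of 10 positive, and 0.036 in males, with 7 of 10 positive. Of all genes 56.1% were positive in females and 52.8% in males. Of 15 aminoacyl-tRNA synthetases and related enzymes, Gatc fell in males (-0.18 ± 0.06, adjusted p = 0.16, limma) and 0 changed in females. None of 6 genes of mitochondrial transcription and DNA upkeep passed in either sex, with 1 in males and 3 in females at an unadjusted p of at most 0.05. At that p, 876 of all 10810 genes were higher and 670 lower in males (limma), and 1050 and 514 in females. The change of all 6 was positive in both sexes.

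Of 8 regulators of mitochondrial biogenesis, the coactivator Ppargc1b rose in males (0.27 ± 0.09, adjusted p = 0.129, limma), and 0 changed in females. Of 15 genes of protein import, 0 changed in males and 2 rose in females, the chaperonin Hspe1 (0.22 ± 0.05, adjusted p = 0.0752, limma) and Timm9 (0.24 ± 0.08). The change was positive for 14 of the 15 in males and for 11 in females. The nuclear genes of the respiratory chain and ATP synthase, which join the products of the mitoribosome, had a median of 0.075 in males with 3 of 57 rising (Ndufb10, Sdhb and Cox6b1), 5.26% and close to that share, and of -0.022 in females with 3 rising and 1 falling. Ndufa3 fell in females by -0.26 ± 0.07, while Sdhb rose by 0.22 ± 0.07 in males and 0.19 ± 0.06 in females. The cytosolic ribosomal proteins had a median of 0.054 in males and -0.013 in females. Of 43 tested, 0 changed in males, and in females 6 fell and 1 rose, among which Rpl36 fell by -0.21 ± 0.05 (adjusted p = 0.0367, limma). The 13 proteins that the mitoribosome makes were not measured by single-gene probe sets here. All lists were read from the same arrays, and no difference between lists was tested.

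**Figure D4:**
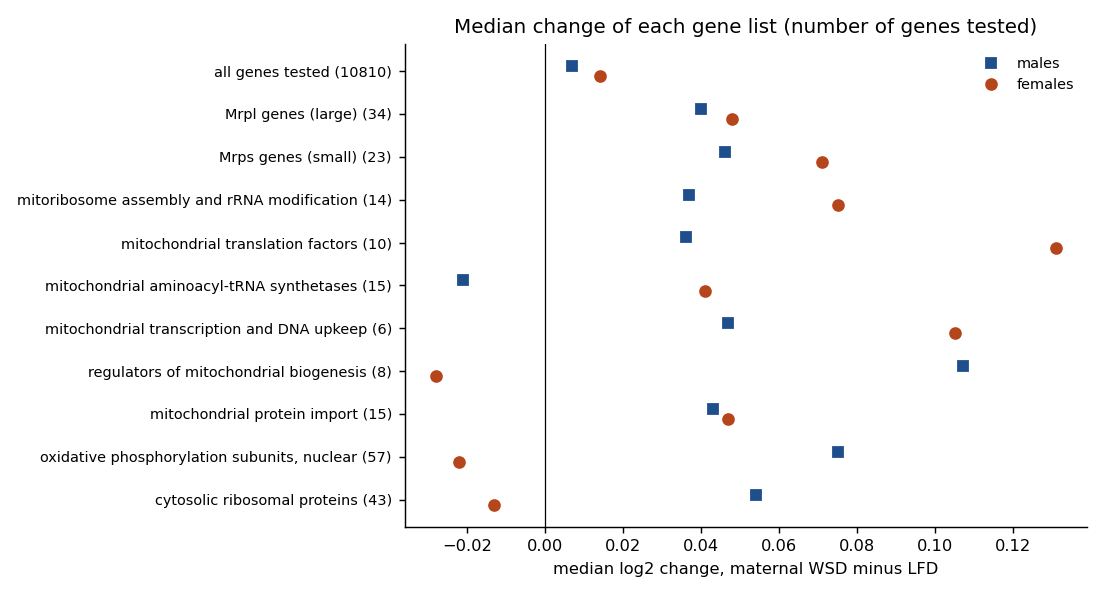
Median log2 change with maternal WSD (horizontal axis) over the genes tested of each list, with their number in parentheses, in males (squares) and females (circles). The 2 mitoribosomal lists lie between 0.040 and 0.071 in both sexes. Other lists above 0 in both are protein import (0.043 in males, 0.047 in females) and mitoribosome assembly (0.037 and 0.075). So are transcription and DNA upkeep (0.047 and 0.105) and translation factors (0.036 and 0.131). Respiratory chain genes, cytosolic ribosomal genes and regulators of biogenesis are above 0 in males and below 0 in females. The tRNA synthetases show the reverse. No error is shown because the medians are descriptions of genes, not of replicates.

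Markers of other cell types moved with diet in males. Of 5 tested B cell markers 4 rose, and the mean over the 6 measured ranged from 5.26 to 6.59 in m-LF and from 6.15 to 6.71 in m-WS, with Vpreb1 below an intensity of 20 on all arrays. Igll1 rose by 1.14 ± 0.25 and Ebf1 by 0.89 ± 0.26. Of 8 neutrophil and myeloid precursor markers 2 rose, S100a9 and Ltf, and the mean ranged from 5.24 to 6.85 in m-LF and from 6.04 to 6.76 in m-WS. In females none of these 13 passed; B cell markers ranged from 5.58 to 7.02 in f-LF and from 5.88 to 6.84 in f-WS, and myeloid markers from 5.51 to 6.99 and from 5.65 to 6.75. Of 4 tested stellate cell and fibroblast markers 1 passed in males, Lrat, which fell by -0.24 ± 0.08. Of these 4, 2 were above 0 and 2 below 0 in males, with a median of -0.002. None of the tested markers of erythroid cells (4), Kupffer cells (5), endothelium (5), cholangiocytes (2) or proliferating cells (4) passed in either sex. Of the 6 hepatocyte markers 1 was above the variation filter, and it did not pass. The part of these cells in the changes of the mitoribosomal genes was not tested.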

How the data were processed

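The deposited values are log2 intensities per probe set, made by the authors with RMA, which corrects background, brings the arrays to a common distribution by quantiles and combines the probes of a set. The table lists 35556 probe sets as Affymetrix designed them, although the methods describe sets remade per Entrez gene. One array per pup was hybridised on Affymetrix Mouse Gene 1.1 ST, and the number of pups limits the precision. Probe sets were named through the platform annotation (21218 with a single gene), and the brightest stood for its gene. Genes with an intensity of at least 20 on 4 arrays and an IQR of at least 0.1 entered a limma model (version 3.58.1, R 4.3.3) of all 27 pups, with a mean per group and an intensity trend. The threshold was p of at most 0.01, as in the methods, and adjusted p-values follow Benjamini and Hochberg over the 10810 genes, except where a fit with the intensity filter alone or over probe sets is named. The fit was tested on simulated data. Groups came from the labels. The named genes were, per sex and subunit, those past the threshold, filled to 5 by smallest p, the 4 of smallest p for the sex difference, the highest 3 and lowest 2 signals, and those below the IQR filter; in other lists up to 3 past the threshold. The genes, lists and motifs were chosen with earlier results of these data known. Where the labels do not say that pups of a group came from different litters, p-values measure the spread between these pups. Alternatives were other filters, probe set rules, scalings, variance models, blocks for the array name parts, and leaving out pups. Figures were drawn with matplotlib 3.10.9.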

Additional observations from a re-analysis of the deposited data

Results flagged for a closer look

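At p of at most 0.01, the response to maternal WSD differed between the sexes for 1 of the 57 genes (1.75%), Mrpl23. Of all genes 2.5% did so. The change of Mrpl23 in males minus that in females was 0.25 (adjusted p = 0.316, limma). It was 0.14 in males, which passed, and -0.11 in females, which did not. Values of 5 pups lay apart from the rest of their group for a named gene, by a rule that chance meets in about 1 of 20 groups, and 96 groups of values were looked at. Mrpl34 was 9.36 in f-WS2, against 9.53 to 9.62 in the other f-WS pups. Mrpl50 was 9.84 in m-LF1, against 9.52 to 9.63. Mrps18a was 8.58 in m-WS6, against 8.37 to 8.44. Mrps18c was 8.27 in f-LF4, against 8.55 to 8.74, and Mrps31 was 8.25 in f-LF3, against 7.95 to 8.09. No subunit mean of a pup lay apart in this way.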

How the results depend on the processing

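Of the 27 pairs of a gene and a comparison that were followed, 0 changed sign in the alternatives run, although Mrpl18 in males was 0.00 within G074. The pair of Mrpl23 and the sexes on WSD was added, and the others were named by their p. Few calls held throughout. The counts of the other fits below have no share of all genes in the same fit beside them. A loss or gain of calls in these genes can thus not be told apart from a general one. In males, 3 genes passed; 1 passed with centred arrays, 6 with array weights, 6 without number 37, 0 without number 48, 0 with the pups of a number and sex averaged, 0 within G074, and 0 at an adjusted p under 0.05. Leaving out each pup gave 2 to 6, the highest without m-LF2. In females, 8 passed; 5 did with centred arrays, 5 with each sex fitted alone, 4 without number 39, 4 without number 40, 5 without number 48, 2 without number 49, 3 without number 50, 1 with averaged pups, 0 within G073, 2 within G074 and 0 at an adjusted p under 0.05. Leaving out each pup gave 4 to 10, with 4 without f-WS2, f-WS3 or f-WS6 and 5 without f-LF5. For the difference between the sexes, 1 passed; 2 did with the intensity filter only, with renewed quantile normalization, with array weights, without number 48, without number 50 and without m-LF6 and m-WS1, 0 within G074 and 0 at an adjusted p under 0.05, and 1 to 2 without each pup (2 without m-LF2, m-LF5, m-LF6, f-LF2 or f-WS5). Between the sexes on LFD, 0 passed; 1 did without number 50 and 1 within G073, and 0 to 1 without each pup (1 without m-LF2). The 4 medians stayed positive. Only that of the large subunit in males without number 37, which was 0.071, moved by more than the spread between pups. The SDs of the subunit means, 0.012 to 0.062, are of the size of the medians, so this yardstick cannot show that they were stable. With centred arrays the median of the large subunit in females was 0.021, against 0.048, and that of all genes moved with it, to -0.013 from 0.014. Left out pup by pup the 4 medians ranged from 0.027 to 0.058 (large) and 0.024 to 0.075 (small) in males. In females they ranged from 0.023 to 0.065 and 0.051 to 0.080. Placing Mrps18a and Mrps30 with the large subunit and leaving out Mrps36 gave 0.040 and 0.061 in males and 0.062 and 0.061 in females. The replicate numbers of the titles do not pair the pups (correlations of deviations from -0.26 to 0.26); with the replicate block 5 genes passed in males and 2 in females, while the same pups without a block, an alternative chosen after seeing the data, gave 3 and 4. The cause of these changes was not tested, beyond the smaller number of pups in some of them. Without the 7 genes whose probe sets are numbered among other chromosomes, also added later, 3 and 8 passed.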
